A study of Mus musculus with 214 samples.

Results

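The gene Ecm1 was followed in mouse liver RNA from 213 libraries, each from 1 liver. It is 1 of 18647 genes measured in WT livers and 1 of 19540 measured in Mgmt-/- livers. Ecm1 was chosen by its measured values, having been called lower after NDMA at all 5 times in Mgmt-/- livers, so its Mgmt-/- treatment differences are given here as a description, with no test. WT livers and the relation of Ecm1 to other genes were not used for that choice, while Mgmt-/- saline livers were the reference side of that contrast.

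N-nitrosodimethylamine (NDMA) is a methylating liver carcinogen that Cyp2e1 activates. Mice of both genotypes carried the RaDR and gpt reporter transgenes on a C57BL/6 background. WT mice had intact Mgmt, the gene of the methyltransferase that repairs O6-methylguanine, and Mgmt-/- mice lacked it in every cell. Pups received NDMA by injection, 3.5 mg/kg on postnatal day 8 and 7 mg/kg on postnatal day 15, and controls of both genotypes received saline on the same days. Livers of males and females were taken 1, 2 or 5 days, 10 weeks or 10 months later. WT saline groups held 21, 8, 7, 8 and 10 livers in this order of times, and WT NDMA groups 26, 8, 8, 8 and 13. Mgmt-/- saline groups held 12, 7, 6, 8 and 12 livers after the removal described next, and Mgmt-/- NDMA groups 12, 8, 8, 8 and 13.

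Libraries were 3′ digital gene expression libraries, which count tags near the 3′ end of each transcript. Values are counts divided by a size factor per library, called normalized counts here, and the scaling was done within each genotype, so WT and Mgmt-/- levels cannot be set against each other. Depth ranged from 150038 to 4791649 reads in WT libraries and from 713584 to 7740710 in Mgmt-/- libraries. The labels were checked first. Mgmt lay between 13.0 and 130 normalized counts in WT livers, with a median of 45.8, and between 0 and 9.67 in Mgmt-/- livers, with a median of 1.09, each on the scale of its own genotype. Alb, the gene of serum albumin, averaged 93497 normalized counts in WT saline livers at day 1. A pair of Mgmt-/- saline day 5 libraries held 6147 and 7562 normalized counts of Kap, a kidney transcript, against at most 13.9 in every other library. They were left out, and their Ecm1 values were 102 and 131.

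Cdkn1a, the p53 target that encodes p21, separated saline from NDMA libraries at days 1 to 5, with medians of 15.1 and 218 normalized counts in WT livers at day 1. In 5 WT libraries Cdkn1a lay nearer, on the log2 scale, to the median of the other treatment at the same time. These were saline libraries D209074 at day 1, D215004 at day 2 and D215012 at day 5, and NDMA libraries D209072 and D209077 at day 1. Sex genes also went against the label in both of these NDMA libraries. All 5 were kept, and the main WT results are also given without them. No Mgmt-/- library stood apart in this way.

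Transforming growth factor beta (TGF-beta) is secreted in a latent form, held by its propeptide and by latent TGF-beta binding proteins in the matrix. Integrins, thrombospondin and proteases release the ligand, which binds Tgfbr2 and Tgfbr1 and acts through Smad2, Smad3 and Smad4. In liver it is known for turning hepatic stellate cells into matrix-producing myofibroblasts. Ecm1 encodes extracellular matrix protein 1, a secreted glycoprotein known in mouse liver for keeping TGF-beta latent, and mice without it develop liver fibrosis.

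Ecm1 (ENSMUSG00000028108.15) is a protein-coding gene on the minus strand of chromosome 3, from 95734147 to 95739569 on GRCm38 in GENCODE vM21, with 10 transcripts of up to 11 exons. Mir7014, a microRNA gene of the same strand, lies within it, and reads of the pair cannot be told apart by position alone. The next gene past its 3′ end is Adamtsl4, on the same strand and 46229 bases away. The promoter is shown because Ecm1 is the single gene that all results below describe. The 250 bases before the RefSeq start site, chr3:95739570-95739819 on GRCm38.p6, minus strand, read 5′ to 3′ with an AP-1 site and a TATA box in capitals:

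Ecm1 promoter: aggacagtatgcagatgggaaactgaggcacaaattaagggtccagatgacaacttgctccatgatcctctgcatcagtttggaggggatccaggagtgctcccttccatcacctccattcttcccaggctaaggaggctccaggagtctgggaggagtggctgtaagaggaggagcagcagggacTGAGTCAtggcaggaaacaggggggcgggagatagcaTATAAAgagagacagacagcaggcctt

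The AP-1 site (TGAGTCA or TGACTCA) matched once, 64 bases before the start, and 4.46% of 32851 RefSeq promoters of the same length hold one on either strand. The TATA box (TATAAA) matched 27 bases before the start, against 12.4% of promoters. A GC box (GGGCGG) stood at 42 bases, against 32.7%. The short Smad motif CAGAC matched at 104 and at 15 bases, against 42.2%. A Smad box (GTCTAGAC), a STAT site (TTCNNNGAA) and an antioxidant response element (TGACNNNGC) had no match, and 0.167%, 7.02% and 10.2% of promoters hold them. These are matches of letters on both strands and were set beside no binding data.

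In WT livers Ecm1 was lower after NDMA at days 1, 2 and 5, by 2.89-, 3.91- and 3.69-fold, and no difference passed the test at week 10 or month 10. Mgmt-/- livers held 3.22-, 3.78- and 4.55-fold less at the same times, and 2.35- and 2.25-fold less at the late ones. The values per liver follow by time, WT first. In whole tissue, fewer cells of a type and less RNA per cell cannot be told apart.

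**Figure D1:**
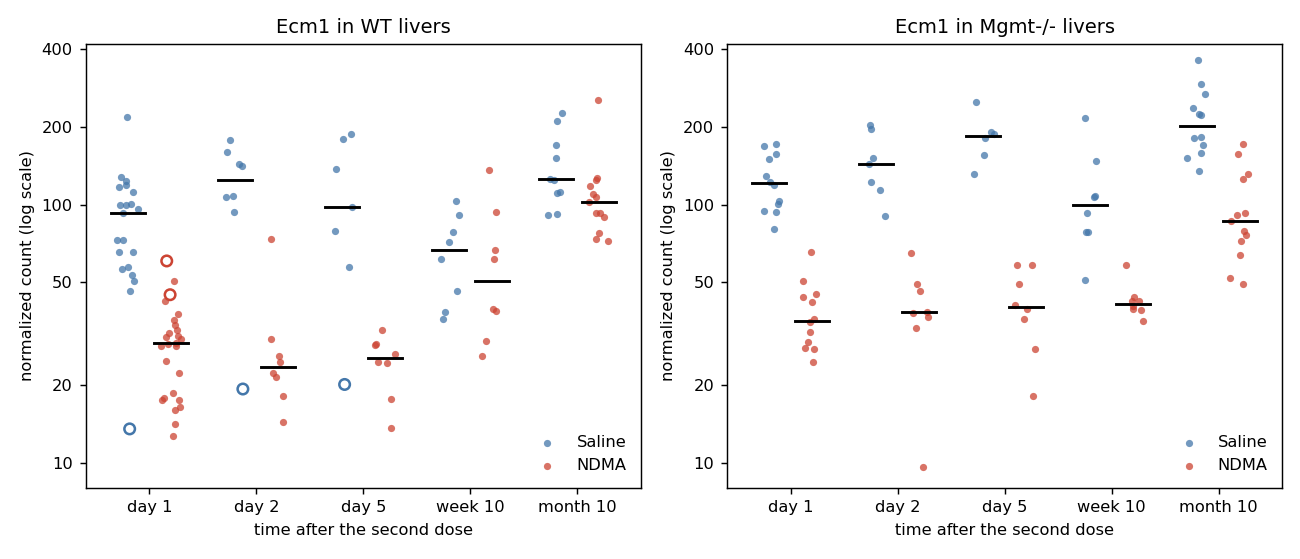
Ecm1 in each liver, as normalized counts on a log scale, by time after the second dose, with saline livers in blue and NDMA livers in red. Black lines are group medians and open circles the 5 WT libraries whose Cdkn1a is nearer to the other treatment on the log2 scale. Mgmt-/- NDMA medians stay between 35.6 and 86.9 while Mgmt-/- saline medians lie between 99.7 and 202.

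At day 1, Ecm1 in the 21 WT saline livers ranged from 13.5 to 218 normalized counts with a median of 92.6, and in the 26 NDMA livers from 12.7 to 60.6 with a median of 29.0. All 26 NDMA livers lay below the saline median, and the groups overlapped through 6 saline livers that were below the highest NDMA liver. The log2 fold change was -1.53 ± 0.18 (SE), with an adjusted p of 6.82e-09 in limma. Of 9028 genes tested, 9.19% were called and 4.19% called lower, and the drop of Ecm1 ranked 20 among them from the lowest fold change. With equal totals 521 genes were called higher and 270 lower, in place of 452 and 378. Without the 5 libraries, the saline range was 46.5 to 218 and the NDMA range 12.7 to 50.8, and the log2 fold change was -1.73. Within the labelled batch 191212Eng alone it was -1.27 (adjusted p = 1.74e-05).

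At day 2, WT saline livers ranged from 19.3 to 179 with a median of 125 (n = 8) and NDMA livers from 14.4 to 73.6 with a median of 23.4 (n = 8). The lowest saline liver, D215004, had 5 Ecm1 reads and was the single saline liver below the highest NDMA liver. Without it the lowest saline value was 93.4 and the groups did not overlap. The log2 fold change was -1.97 ± 0.40 (adjusted p = 0.00544), and -2.33 without D215004, and with all libraries 6.23% of genes were called and 2.91% called lower. With equal totals 386 genes were called higher and 182 lower, in place of 285 and 249. These counts were 402 and 380 without D215004, and 461 and 410 without D215006, which held under 300000 reads. Library D215006 gave the highest NDMA value from 7 Ecm1 reads in 150038, with a 95% Poisson interval of 29.6 to 152 normalized counts, which covers counting error alone.

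At day 5, WT saline livers ranged from 20.1 to 187 with a median of 97.6 (n = 7) and NDMA livers from 13.6 to 32.8 with a median of 25.5 (n = 8). Again a single saline liver, D215012, lay among the NDMA livers, and the next lowest held 57.2. The log2 fold change was -1.88 ± 0.36 (adjusted p = 0.00708), and -2.20 without D215012, with 3.61% of genes called and 1.39% called lower. Genes called higher and lower numbered 192 and 120, but 342 and 230 without D215012. Without D215014, which held under 300000 reads, they numbered 474 and 320. With no filter on low values the adjusted p of Ecm1 was 0.0621. The call at day 5 therefore stands with the filter and not without it.

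At week 10, WT saline livers ranged from 36.2 to 104 with a median of 66.8 (n = 8) and NDMA livers from 25.9 to 137 with a median of 50.6 (n = 8). The groups overlapped over most of their range, and the log2 fold change was -0.21 ± 0.19 (adjusted p = 0.910, 95% interval -0.61 to 0.18). At month 10, saline livers ranged from 91.5 to 227 with a median of 125 (n = 10) and NDMA livers from 72.3 to 254 with a median of 102 (n = 13). The log2 fold change was -0.28 ± 0.16 (adjusted p = 0.629, 95% interval -0.61 to 0.05), and 11 of 13 NDMA livers lay below the saline median. At these times limma called 0 of 8048 and 0 of 9254 genes lower (0%), 2 and 0 higher, and 350 and 757 had an unadjusted p under 0.05, while edgeR and DESeq2 called 0 genes at both times. The intervals hold no decrease larger than 0.61 on the log2 scale.

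Whether the WT difference at a late time differed from that at an early time was tested in a term added after the values had been seen, within the batches that held days 2 and 5, week 10 and month 10. The log2 fold change at week 10 exceeded that at day 2 by 1.75 ± 0.48 (adjusted p = 0.0561; 1.54% of genes called) and that at day 5 by 1.61 ± 0.50 (adjusted p = 0.154; 0.678% called). Month 10 exceeded day 5 by 1.53 ± 0.46 (adjusted p = 0.305). None passed with all libraries. Without D215004 and D215012 the differences were 2.14, 1.98 and 1.89, with adjusted p-values of 1.1e-04, 0.00316 and 0.00838, so these calls rest on which saline libraries were included.

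In Mgmt-/- livers at day 1, Ecm1 ranged from 80.6 to 171 normalized counts in saline livers with a median of 121 (n = 12) and from 24.7 to 65.4 in NDMA livers with a median of 35.6 (n = 12). This was a log2 fold change of -1.69 ± 0.14, and of -1.65 within batch 191212Eng alone. At day 2, saline livers ranged from 90.3 to 205 with a median of 144 (n = 7) and NDMA livers from 9.63 to 65.3 with a median of 38.3 (n = 8), a log2 fold change of -1.92 ± 0.29. At day 5, saline livers ranged from 132 to 251 with a median of 184 (n = 6) and NDMA livers from 18.2 to 58.7 with a median of 40.2 (n = 8), a log2 fold change of -2.19 ± 0.22. Every NDMA liver of these 3 times lay below the lowest saline liver of its time. Since the choice of Ecm1 used this contrast, nothing is read from that separation. The shares of genes called were 17.7%, 19.9% and 17.8%, and of genes called lower 8.64%, 7.50% and 6.71%. Scaled to equal totals, genes called higher and lower numbered 1644 and 513 in place of 911 and 869 at day 1, 1642 and 405 in place of 1170 and 710 at day 2, and 1405 and 399 in place of 1037 and 624 at day 5. On that scaling the log2 fold change of Ecm1 was -1.49, -1.75 and -2.03.

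At week 10, Mgmt-/- saline livers ranged from 50.9 to 216 with a median of 99.7 (n = 8) and NDMA livers from 35.5 to 58.4 with a median of 41.4 (n = 8), and 7 of 8 NDMA livers lay below the lowest saline liver. Ecm1 differed by -1.24 ± 0.23 on the log2 scale, with 11.2% of genes called and 3.88% called lower. With equal totals 1156 genes were called higher and 176 lower there, in place of 704 and 376, and Ecm1 was at -1.03. At month 10, saline livers ranged from 135 to 363 with a median of 202 (n = 12) and NDMA livers from 49.3 to 171 with a median of 86.9 (n = 13). There, 11 of 13 NDMA livers lay below the lowest saline liver, and 4 of 12 saline livers below the highest NDMA liver. Ecm1 differed by -1.17 ± 0.14, with 7.74% of genes called and 2.99% called lower. Side by side, the log2 fold changes of WT and Mgmt-/- livers were -0.21 and -1.24 at week 10, while those at month 10 were -0.28 and -1.17, and the difference between genotypes was not tested because it shares the contrast that chose Ecm1.

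**Figure D2:**
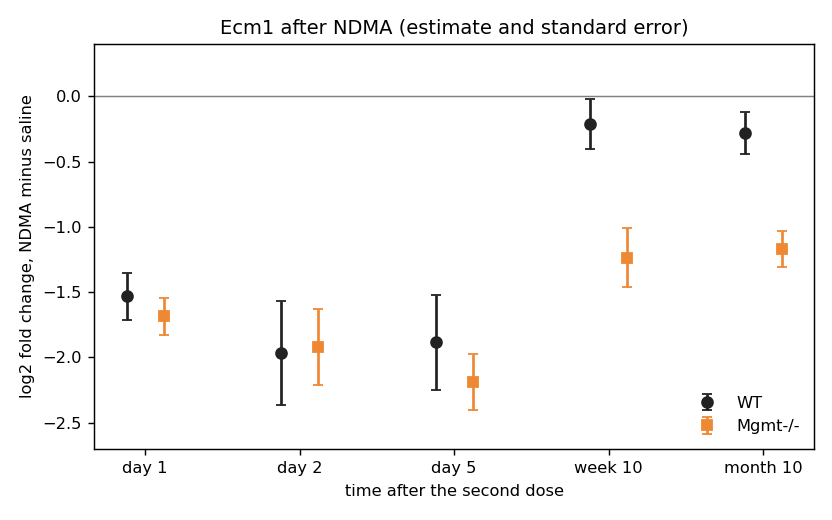
Log2 fold change of Ecm1, NDMA minus saline, with its standard error, by time, for WT (circles) and Mgmt-/- (squares) livers. WT lies at -1.53 to -1.97 at days 1 to 5 and at -0.21 and -0.28 later, while Mgmt-/- stays between -2.19 and -1.17.

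Saline livers give the level of Ecm1 by age without NDMA. The Mgmt-/- saline livers were also used in choosing Ecm1, in each case against NDMA livers of the same age. Their p-values for age and sex below are therefore not free of that choice. In WT saline livers the group means, from high to low, were 142 ± 47.4 normalized counts at month 10 (SD, n = 10), 119 ± 49.5 at day 2 (n = 8), 108 ± 62.7 at day 5 (n = 7), 88.8 ± 42.5 at day 1 (n = 21) and 66.0 ± 24.8 at week 10 (n = 8). Neighbours in this order differed by less than the spread of their groups. In Mgmt-/- saline livers they were 216 ± 67.1 at month 10 (n = 12), 183 ± 40.3 at day 5 (n = 6), 146 ± 42.1 at day 2 (n = 7), 125 ± 31.3 at day 1 (n = 12) and 110 ± 51.4 at week 10 (n = 8). The lowest and the highest mean thus fell at the same ages in both genotypes. These means carry no batch term. With batch as a term the change from day 1 to week 10 was 0.25 in WT and 0.0033 in Mgmt-/- livers, so the low at week 10 is a description.

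From week 10 to month 10, Ecm1 rose 2.27-fold in WT saline livers (log2 1.19 ± 0.39, adjusted p = 0.00741) and 2.00-fold in Mgmt-/- saline livers (log2 1.00 ± 0.18, adjusted p = 4.33e-06). The median gene rose by 0.36 and 0.18 between the same ages, and 61.0% and 51.0% of genes were called in either direction, so Ecm1 was among many. In WT livers 26.2% of genes rose by more than Ecm1, and in Mgmt-/- livers 18.2%. Within batches that held both ages the rise was 1.12 and 1.00. From day 1 to month 10 the rise was 1.44 in WT livers (adjusted p = 0.0360; 48.8% of genes called) and 1.00 in Mgmt-/- livers (adjusted p = 1.47e-04; 51.1% called). The WT rise depended on the setting. It was 0.89 with an adjusted p of 0.0509 without the libraries that stand apart, and 0.78 (adjusted p = 0.0202) without a batch term.

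The first 3 collection times lay within the third postnatal week, and no saline difference among them passed the test in either genotype. From day 1 to day 2 the change was 0.98 in WT livers (adjusted p = 0.571; 0.707% of genes called) and 0.06 in Mgmt-/- livers (adjusted p = 0.947; 0.0405% called). No WT batch held both of these times, and without a batch term the WT change was 0.37. From day 2 to day 5 it was -0.21 (adjusted p = 0.905; 0.906% called) and 0.37 (adjusted p = 0.999; 0% called). From day 1 to day 5 it was 0.76 (adjusted p = 0.762; 0.431% called) and 0.44 (adjusted p = 0.213; 5.23% called), where WT batches did not overlap either and the WT change was 0.17 without a batch term. From day 1 to week 10 the fitted change was 0.25 (adjusted p = 0.889; 9.48% called) and 0.0033 (adjusted p = 0.996; 16.8% called). The WT means went the other way, from 88.8 to 66.0, no WT batch held both times, and without a batch term the WT change was -0.36, so no direction is given. From day 5 to week 10, Ecm1 changed by -0.51 ± 0.39 in WT livers (adjusted p = 0.456; 11.8% called), and by -0.86 (adjusted p = 0.0131) without the libraries that stand apart. In Mgmt-/- livers the same change was -0.43 ± 0.31 (adjusted p = 0.494; 4.98% called), and no batch held both ages. Age and batch could not be told apart there, and without a batch term the change was -0.82 (adjusted p = 0.00154).

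Males and females differed in 1 of the 7 saline comparisons that batch allowed. At month 10, Mgmt-/- saline females held 257 ± 59.3 normalized counts (SD, n = 7) and males 160 ± 17.5 (n = 5), a log2 difference of 0.65 ± 0.17 (adjusted p = 0.00966), where 14.5% of genes were called in either direction. Mgmt-/- NDMA livers of that age held 123 ± 33.7 in females (n = 7) and 65.5 ± 12.7 in males (n = 6). There the NDMA difference of females minus that of males was 0.22 ± 0.28 on the log2 scale (0.338% of genes called). It is a description, since it shares the contrast that chose Ecm1. WT saline livers at month 10 held 163 ± 51.1 in females (n = 6) and 110 ± 14.1 in males (n = 4), with a log2 difference of -0.10 ± 0.42 once batch was a term and 0.50 without it, neither of which passed (0.356% called). At day 1, the difference was -0.55 ± 0.26 in WT livers (adjusted p = 0.998; 0.0333% called) and 0.16 ± 0.18 in Mgmt-/- livers (adjusted p = 0.810; 0.273% called). Under other settings the WT difference at day 1 lay between -0.58 and -0.34 and did not pass. In Mgmt-/- livers it was 0.53 at day 2 (adjusted p = 0.999; 0.054% called), 0.39 at day 5 (adjusted p = 0.962; 0.0552% called) and 0.08 at week 10 (adjusted p = 0.973; 0.629% called).

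In WT livers at days 2 and 5 and week 10, each batch held 1 sex, so sex and batch could not be told apart. At day 5, WT saline females held 63.5 ± 33.3 (n = 4) and males 168 ± 26.7 (n = 3), while NDMA females held 28.7 ± 3.38 (n = 4) and males 20.5 ± 5.91 (n = 4). The sex by treatment term was 2.09 ± 0.55 (adjusted p = 0.772), with an unadjusted p of 0.00119, and limma called 0 genes (0%) for it. Without D215012 the term was 1.62 (adjusted p = 0.922). No WT sex by treatment term, 1 for each time, passed for Ecm1. The Mgmt-/- terms share the contrast that chose Ecm1 and were not read as tests.

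**Figure D3:**
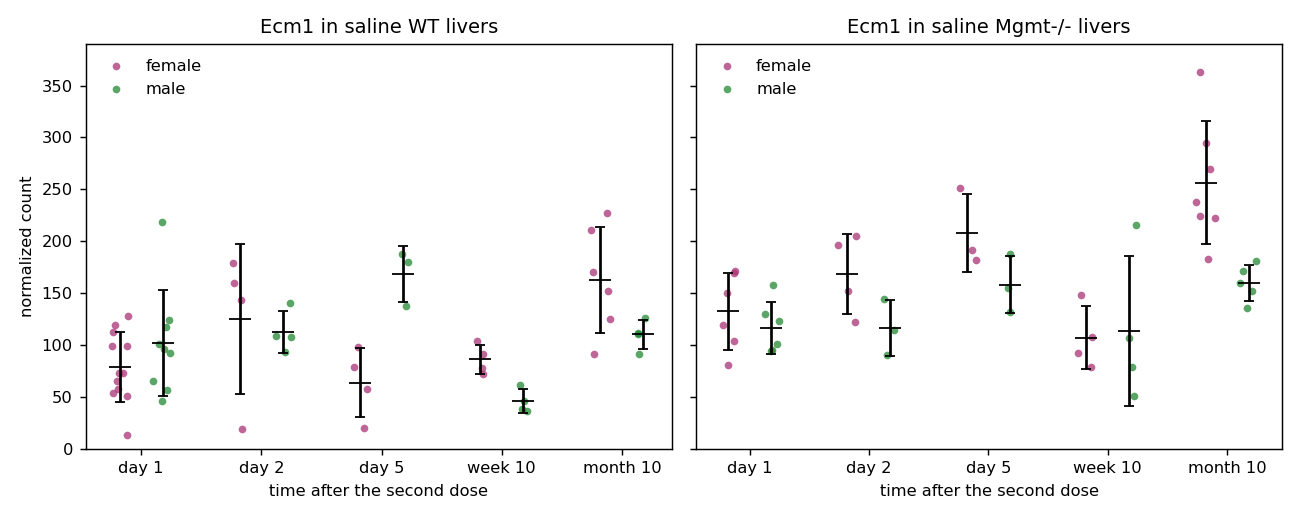
Ecm1 in saline livers as normalized counts by time after the second dose, females in purple and males in green. Points are livers and black bars the mean and SD. At month 10, Mgmt-/- females average 257 and males 160.

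Genotypes were compared on reads in saline livers at day 1 in the batches that held both, 12 livers each. Ecm1 held 47.6 ± 20.0 CPM (reads scaled to the same total per library) in WT livers and 61.8 ± 15.99 in Mgmt-/- livers. The log2 difference was 0.38 in edgeR (adjusted p = 1.00), and 0.0102% of 9814 genes were called.

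Col1a1, the gene of the main collagen chain of scar, and Acta2, the smooth muscle actin of activated stellate cells, moved differently from Ecm1 and from each other. In Mgmt-/- livers Col1a1 held 28.8 ± 13.4 normalized counts in saline and 29.5 ± 23.7 in NDMA livers at day 1. At week 10 the means were 3.61 ± 2.85 and 19.8 ± 11.6, and by month 10 they were 4.03 ± 2.56 and 13.6 ± 5.38. It rose by 2.39 ± 0.46 and 1.66 ± 0.30 on the log2 scale at the last 2 times and was not called at days 1 to 5. At week 10 and month 10 the Mgmt-/- saline means of Col1a1 and of Acta2 were below the minimum mean of 5, so both genes entered the test there through their NDMA livers, and these calls are a description. The shares of all genes called higher in Mgmt-/- livers were 9.06%, 12.4%, 11.1%, 7.27% and 4.75% from day 1 to month 10. Acta2 rose at all 5 times, by 1.61, 2.06, 1.45, 2.33 and 1.13, from 18.1 ± 7.70 to 62.3 ± 36.0 at day 1 from 2.73 ± 2.36 to 15.6 ± 8.98 at week 10 and from 4.45 ± 3.72 to 9.74 ± 4.51 at month 10. In WT livers Acta2 rose at days 1 and 2 by 1.01 ± 0.17 and 0.99 ± 0.29, where 5.01% and 3.33% of genes were called higher, and Col1a1 was not called (-0.54, -0.49 and -0.52 at the 3 early times). At the late WT times both genes were below the minimum mean of 5 and were not tested.

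Whether livers with less Ecm1 held more Col1a1 or Acta2 was asked within groups, by correlating deviations of log2(value + 1) from the mean of livers of the same group, sex and batch. There were 8 relations, and permutation p-values were two-sided, from 100000 shuffles of livers within a group. In Mgmt-/- NDMA livers (n = 49), Ecm1 showed r = 0.0048 with Col1a1 (rho = 0.018, permutation p = 0.972) and r = 0.015 with Acta2 (rho = 0.00061, permutation p = 0.912). In Mgmt-/- saline livers (n = 45), r was 0.0060 with Col1a1 (rho = -0.041, permutation p = 0.977) and 0.084 with Acta2 (rho = 0.064, permutation p = 0.688). These 4 had an adjusted p of 0.977, and without the 2 livers farthest out on the x axis r was 0.037, 0.00011, -0.016 and 0.16.

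In WT NDMA livers (n = 63), Pearson's r was -0.29 with Col1a1 (rho = -0.22, permutation p = 0.00983, adjusted p = 0.0786) and -0.24 with Acta2 (rho = -0.28, permutation p = 0.0286, adjusted p = 0.114). Without the 2 farthest livers, r was -0.28 and -0.27. In WT saline livers (n = 53, since 1 of 54 was alone in its sex and batch), r was 0.25 with Col1a1 (rho = 0.38, permutation p = 0.0593, adjusted p = 0.158) and 0.059 with Acta2 (rho = 0.029, permutation p = 0.607, adjusted p = 0.977), and 0.23 and 0.038 without the 2 farthest. The rank correlation of saline livers with Col1a1 had an adjusted p of 0.0498, while no Pearson correlation of these deviations passed with all libraries. Centred on the group alone, r of WT NDMA livers with Acta2 was -0.36 and passed (adjusted p = 0.0112). Without the libraries that stand apart, r with Col1a1 was 0.33 in saline and -0.33 in NDMA livers, both with an adjusted p of 0.0308. With equal totals, r of WT NDMA livers was -0.12 with Col1a1 and -0.14 with Acta2. Within the 5 single groups of WT NDMA livers, r of the same deviations lay between -0.78 and -0.11 with Col1a1 and between -0.57 and 0.13 with Acta2. In the 5 Mgmt-/- NDMA groups it lay between -0.28 and 0.55 with Col1a1 and between -0.49 and 0.49 with Acta2. With sex and batch left in, the ranges were -0.63 to 0.39 and -0.65 to -0.0037 in WT, and -0.41 to 0.76 and -0.49 to 0.33 in Mgmt-/- livers. The late WT groups and the late Mgmt-/- saline groups entered the 8 relations, although Col1a1 and Acta2 averaged below 5 there. In WT saline livers r of deviations with Col1a1 was 0.84 at week 10 (mean 4.73) and 0.74 at month 10 (mean 3.86). At days 1, 2 and 5 it was 0.52, -0.20 and 0.076. In WT NDMA livers it was -0.70 at week 10 (mean 3.41) and -0.34 at month 10 (mean 3.13). At their early times it was -0.17, -0.78 and -0.11.

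**Figure D4:**
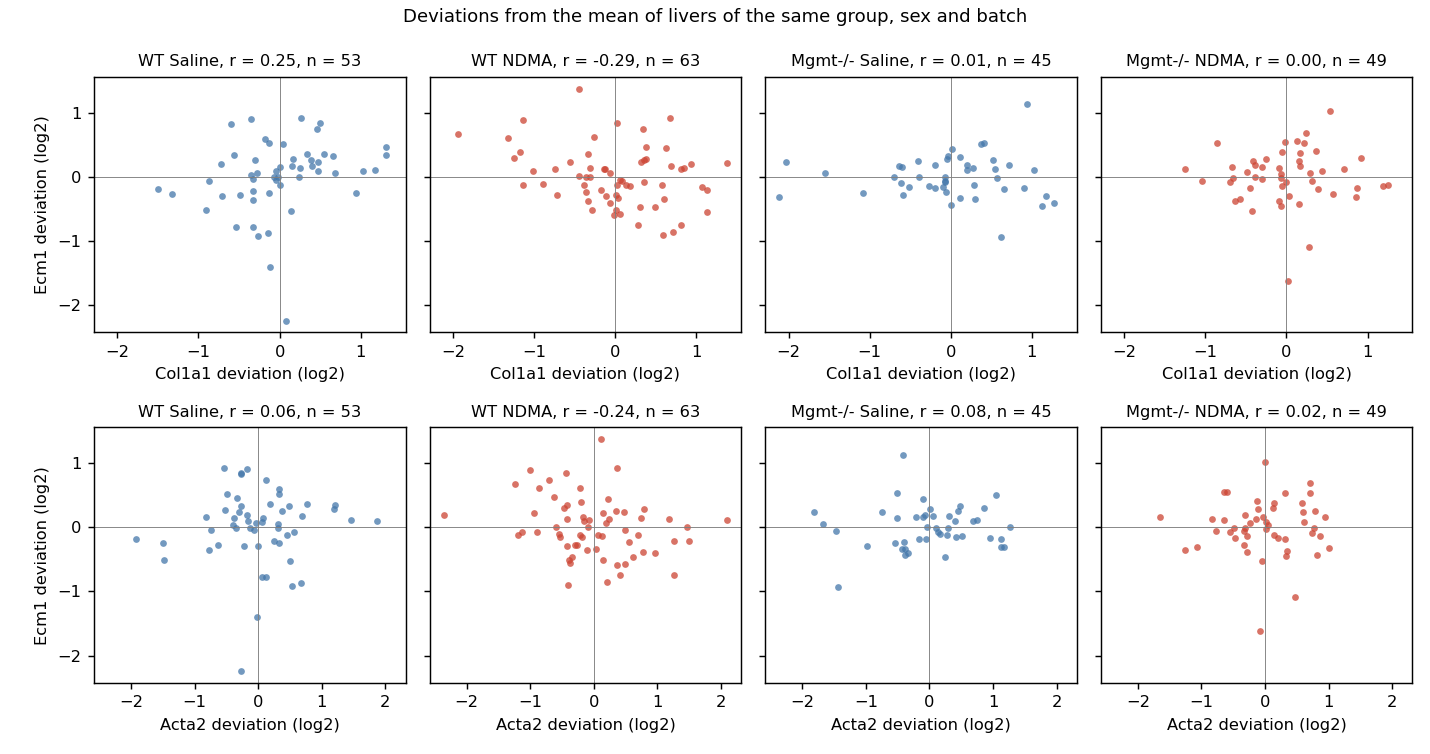
Deviation of Ecm1 (y axis, log2) against that of Col1a1 (top) or Acta2 (bottom) from the mean of livers of the same group, sex and batch. Each point is a liver, saline in blue and NDMA in red, and r is largest in size in WT NDMA livers, at -0.29 for Col1a1, and at most 0.084 in Mgmt-/- livers.

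Other genes of TGF-beta signalling were taken from a list of 52. In Mgmt-/- livers 6 of 37 tested members rose and 10 fell at day 1, followed by 5 and 6 of 35, 6 and 5 of 32, 11 and 1 of 36, and 6 and 0 of 36 at the later times in order. Over all genes tested in Mgmt-/- livers, 9.06%, 12.4%, 11.1%, 7.27% and 4.75% were called higher and 8.64%, 7.50%, 6.71%, 3.88% and 2.99% lower. With equal totals 8 members rose and 5 fell at day 1 and 6 and 2 at day 2, which turned the balance at both times, followed by 9 and 4, 14 and 0, and 6 and 0. Of the members that rose, 2, 2, 2, 5 and 3 had a saline mean below the minimum of 5, Timp1, Col1a1 and Acta2 among them, and of those that fell, 0, 3, 2, 0 and 0 had an NDMA mean below it, so these passed the filter through 1 group, and the counts are a description. The median log2 fold change of the list was -0.23, -0.13, 0.21, 0.50 and 0.07 in this order, against at most 0.04 in size for all genes. In WT livers 4 of 34 rose and 8 fell at day 1, followed by 1 and 4 of 32 and 0 and 3 of 32, and none of 23 and 28 was called at the late times, where 2 members each had an unadjusted limma p under 0.05 and edgeR and DESeq2 called 0. At WT day 1, 2 of the members that rose had a saline mean below 5. Of those that fell there, 1 had an NDMA mean below 5, so these WT counts are a description too. At WT day 2, 7 members fell once D215004 was left out. The shares of all WT genes called higher were 5.01%, 3.33%, 2.22%, 0.0249% and 0%, and of those called lower 4.19%, 2.91%, 1.39%, 0% and 0%.

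Among the ligands, Tgfb1, Tgfb2 and Tgfb3 were below the minimum mean of 5 in every comparison and were not tested. Tgfb2 averaged 2.11 normalized counts over WT and 3.34 over Mgmt-/- livers, and Tgfb3 1.52 and 2.25. Among latency proteins, Ltbp4, which anchors latent TGF-beta in the matrix, fell in the 3 early Mgmt-/- comparisons, with log2 fold changes of -1.91 ± 0.30, -1.75 ± 0.39 and -1.602 ± 0.55, from 20.2 to 5.35 normalized counts at day 1. It also fell in WT livers at day 1, by -1.33 ± 0.21 on that scale. Its Mgmt-/- differences at week 10 and month 10, -0.72 and -0.47, were not called.

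Plg, plasminogen, whose active form plasmin can release TGF-beta, was the most abundant member and fell in Mgmt-/- livers at day 1, day 5 and week 10 (-0.94 ± 0.17, -0.80 ± 0.13 and -0.63 ± 0.21), and in WT livers at days 2 and 5 (-0.73 and -0.72). Tgfbr2, the receptor that binds the ligand first, rose in Mgmt-/- livers at day 5, week 10 and month 10 by 1.07 ± 0.23, 0.73 ± 0.24 and 0.68 ± 0.20, and in WT livers its largest difference was 0.48 at day 2, not called. Of the signal transducers, Smad2 rose in Mgmt-/- livers at days 1 and 2 by 0.59 ± 0.18 and 0.85 ± 0.27, and Smad4, the partner that all Smad signals share, was called at no time. Bambi, a decoy receptor that dampens the signal, fell in Mgmt-/- livers at the 3 early times (-0.93 ± 0.32, -0.84 ± 0.32 and -1.16 ± 0.37).

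Among the target genes, Tagln, an actin-binding protein of myofibroblasts, rose in Mgmt-/- livers at all 5 times, by 2.15, 1.41, 1.16, 2.10 and 0.91, and Timp1, an inhibitor of matrix proteases, rose by 2.98, 3.19, 2.38 and 4.22 at the first 4. Col3a1, a fibrillar collagen, fell at the early times (-0.69, -0.70 and -0.83) and rose by 1.79 ± 0.29 at week 10, from 24.9 ± 14.7 to 78.0 ± 17.5 normalized counts. Postn, periostin, fell early in both genotypes, with -1.37, -1.08 and -0.81 in Mgmt-/- and -1.07, -2.39 and -1.75 in WT livers. In WT livers Timp1 and Tagln rose at day 1 and Col3a1 fell there (-1.15 ± 0.15). Timp1 averaged 3.42 normalized counts over all WT livers, below the minimum of 5, and day 1 was the single WT time at which it was tested.

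**Figure D5:**
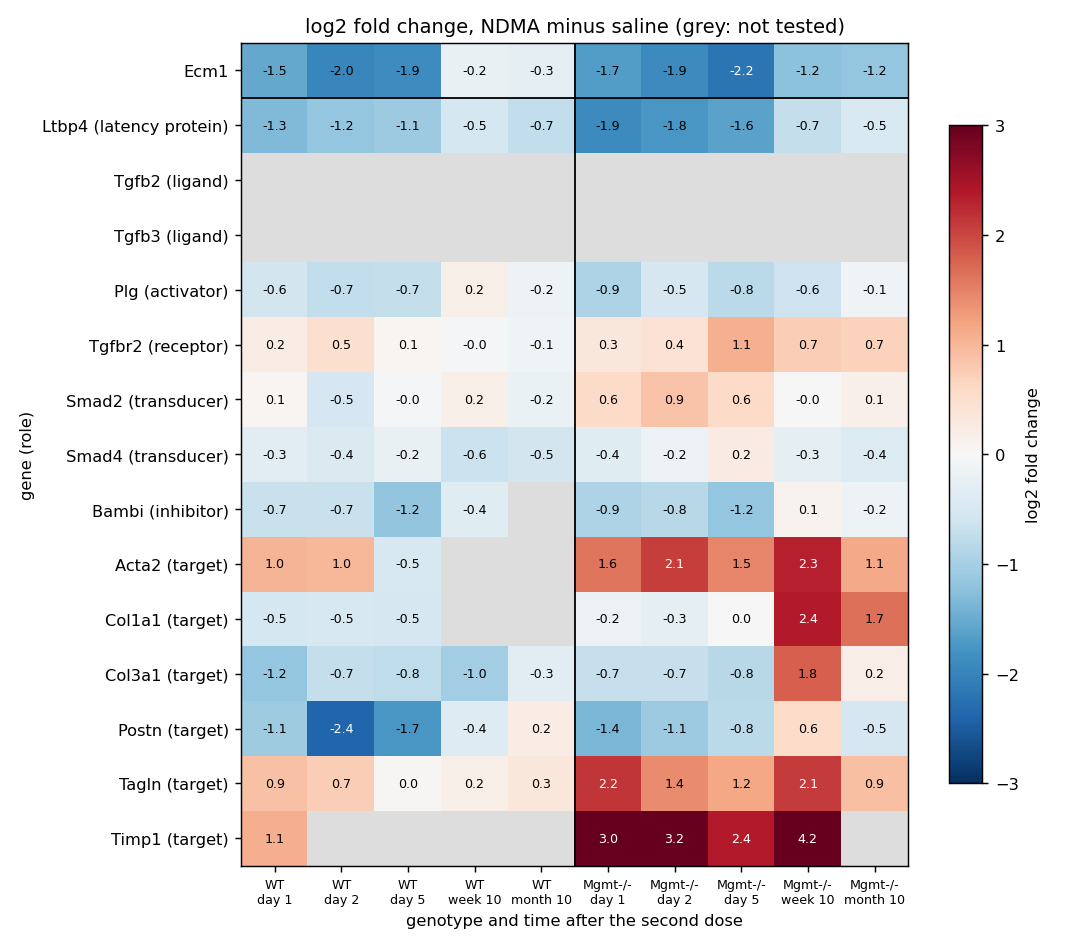
Log2 fold change, NDMA minus saline, of Ecm1 and named genes of the TGF-beta list (rows, with their roles) in WT and Mgmt-/- livers at 5 times (columns). Red is higher and blue lower in NDMA livers, and grey is not tested. Ecm1 is blue throughout the Mgmt-/- columns, while Acta2 is red in them, at 1.13 to 2.33.

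Markers of pericentral hepatocytes were lower at the early times, when Ecm1 was lower, and the other marker lists are given after them. The pericentral hepatocyte list, cells around the central vein that activate NDMA, summed to a mean of 9439 normalized counts in WT saline and 3506 in NDMA livers at day 1, with 8 of 8 tested members lower, 7 of 8 at day 2 and 5 of 8 at day 5, and 0 at week 10 and month 10, where 4.19%, 2.91%, 1.39%, 0% and 0% of all genes were called lower. Its most abundant gene, Cyp2e1, averaged 5589 and 1928 at WT day 1. In Mgmt-/- livers 9 of 9, 7 of 8, 7 of 8, 4 of 8 and 4 of 10 were lower from day 1 to month 10, with 1 higher at week 10, where 8.64%, 7.50%, 6.71%, 3.88% and 2.99% of all genes were called lower, and the sum went from 9462 to 1616 at day 1 and from 10115 to 7100 at month 10. No member of the list was at 0 throughout any group. Of the WT libraries that stand apart, saline D209074, D215004 and D215012, low in Ecm1, had pericentral sums of 1213, 2747 and 2827, while NDMA D209072 and D209077 had 6308 and 6295. Their choice by Cdkn1a, which differs with treatment, ties other genes that respond to NDMA to it, so nothing is read from these sums. Sums of the other lists were not set out for these libraries. The part of pericentral hepatocytes in the Ecm1 result was not tested.

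The other marker lists are counted by members called, against shares of all genes called higher of 5.01%, 3.33% and 2.22% and lower of 4.19%, 2.91% and 1.39% over the 3 early WT times, and of 9.06%, 12.4%, 11.1%, 7.27% and 4.75% higher and 8.64%, 7.50%, 6.71%, 3.88% and 2.99% lower over the 5 Mgmt-/- times. The general hepatocyte list, which shares Cyp2e1 with the pericentral list, had early medians of -0.23, -0.54 and -0.44 in WT livers, with 1, 2 and 1 of 10 lower. Over the 5 Mgmt-/- times its medians were -0.75, -0.49, -0.46, -0.24 and 0.02, with 6, 4, 2, 2 and 1 of 10 lower and 1 higher at month 10. The periportal list had early medians of 0.26, 0.01 and -0.06 in WT livers and medians of -0.15, -0.05, 0.10, -0.14 and -0.18 over the Mgmt-/- times. In WT livers 3 of 9 members were higher at day 1, then 2 of 9 lower at day 2 and 1 of 9 lower at day 5. Over the 5 Mgmt-/- times 2, 1, 1, 1 and 2 of 9 were higher, and 2 were lower at day 1. Stellate cell markers, of which Dcn was the most abundant at 498 and 368 in WT saline and NDMA livers at day 1, were lower for 4 of 8, 3 of 7 and 1 of 7 in WT livers early and for 5 of 8, 3 of 7 and 4 of 8 in Mgmt-/- livers. At the late Mgmt-/- times 2 of 7 were higher, then 1 higher and 1 lower of 8. Macrophage markers were higher for 2 and lower for 1 of 7 in WT livers at day 1, then higher for 1 and lower for 2 at day 2. Over the 5 Mgmt-/- times 2, 4, 3, 2 and 1 of 7 were higher, with a median of 0.88 at day 2, and 3 were lower at day 1. Endothelial markers were lower for 1 of 7 in WT livers at day 1, and the later WT medians, without calls, were -0.43, 0.20, -0.20 and 0.20. Over the 5 Mgmt-/- times 1, 2, 2, 1 and 1 of 7 were higher and 4, 1, 2, 0 and 0 lower. Spp1, the most abundant of the cholangiocyte markers, averaged 214 in Mgmt-/- saline and 132 in NDMA livers at day 1, with 302 and 114 on day 5, and was called lower on both days, while it was called higher on day 1 in WT livers (187 and 305). It was also called higher in Mgmt-/- livers at both late times, where 1 saline liver of week 10 and 1 NDMA liver of month 10 stood far above the rest of their groups. The cholangiocyte sums of week 10 had a median of 86.9 in saline livers (59.4 to 629) and 825 in NDMA livers (421 to 1840), and those of month 10 a median of 87.0 (42.5 to 132) and 366 (182 to 3683). Markers of red cell and neutrophil precursors, led by Hbb-bs, were lower for 3 of 4, 1 of 3 and 2 of 3 in Mgmt-/- livers at the early times (medians of -0.82, -0.76 and -0.76), with medians of 0.37 and 0.42 later, and their early WT medians were -0.40, -0.62 and -0.77. Kidney markers summed to at most 6.94 normalized counts on average in any group. The part of these cells in the result was not tested.

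The genes most like Ecm1 over all livers were found by Pearson r of deviations from the mean of livers of the same genotype and time, over 117 WT and 94 Mgmt-/- livers and 4922 genes with a mean of at least 20, ranked by the weaker genotype. These points share treatment and library, so r is a description. Gulo, which completes vitamin C synthesis, led with r = 0.80 in WT and 0.81 in Mgmt-/- livers. Ces1c, a carboxylesterase secreted into plasma, had 0.79 and 0.78, and Glul, the glutamine synthetase of pericentral hepatocytes, 0.76 and 0.75. Sardh, the mitochondrial sarcosine dehydrogenase, had 0.75 and 0.78, and Reln, a stellate cell marker in liver, 0.74 and 0.77. The median r over these genes was 0.0020 in WT and -0.0015 in Mgmt-/- livers.

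At month 10 in Mgmt-/- livers the log2 fold change was 0.02 for Glul, -0.44 for Gulo, -0.61 for Ces1c, -0.44 for Sardh and -0.74 for Reln, against -1.17 for Ecm1. At week 10 they were -1.03, -0.36, -0.86, -0.71 and -0.28, against -1.24. These differences between genes were not tested. The genes most opposite to Ecm1 were S100a10, an annexin partner (r = -0.79 in both genotypes), Lgals1, galectin-1 (-0.76 and -0.82), Bax, a p53 target of cell death (-0.75 and -0.80), Cox6b2, a cytochrome oxidase subunit (-0.74 and -0.77), and Thyn1 (-0.75 and -0.74).

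Over saline livers alone, 54 WT and 45 Mgmt-/-, other genes were nearest to Ecm1. They were Mthfd1, a folate cycle enzyme (r = 0.66 and 0.68), Tfr2, an iron sensor of hepatocytes (0.66 and 0.65), Itih4, a plasma protein (0.63 and 0.68), and Ugt1a9 and Ugt1a10 (0.79 and 0.61 each), glucuronosyltransferases that share their 3′ exons and cannot be told apart by 3′ tags. None of the 5 genes nearest over all livers was among these.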

How the data were processed

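Per the labels and the study's methods, reads were aligned to GRCm38 (mm10) with STAR and counted per gene with ESAT, and the authors divided the counts by DESeq2 size factors within each genotype. Versions and annotation are not given in the sources used here. The deposited values are therefore a signal, not counts. Whole reads were recovered in 209 of 213 columns, where 100% of values were whole multiples of 1 step within 0.001 reads, and the other 4 were left out of tests on counts. One labelled library of 214, a Mgmt-/- saline male at month 10, had no column and was not analysed here.

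Differences were tested with limma 3.58.1 (trend, robust) in R 4.3.3 on log2(value + 1), so that fold changes of low genes are understated, with sex and batch as terms. Genes needed a mean of at least 5, and were called at an absolute log2 fold change over 0.58 with a p-value, adjusted after Benjamini and Hochberg, under 0.05. Genotypes were compared with edgeR 4.0.16. Alternatives included pseudocounts of 0.5 and 5, minimum means of 0 and 20, equal totals, no covariates, no libraries under 300000 reads, edgeR, DESeq2 1.42.0 and leaving out each liver where a group held at most 8. On recovered reads, edgeR called 508 genes higher and 360 lower at WT day 1 and 815 and 808 at Mgmt-/- day 1.

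Ecm1, the lists and the tests were chosen with earlier results of these data known. Named were Ecm1, Col1a1, Acta2, label check genes, TGF-beta list members called in 1 direction at 3 or more times in a genotype (or, for a role without such a member, its 2 with the highest mean), the 5 genes most like and least like Ecm1, and the 5 most like it in saline livers. Cdkn1a, and in the marker lists the most abundant genes, were named after their values were seen. Leaving out libraries by Cdkn1a and the time by treatment term were also added then. Only the limma treatment difference was checked on simulated data, with strong changes, the same dispersion for every gene and no batch term. The other tests were not checked in this way. Gene positions are from GENCODE vM21 and the promoter from RefSeq (GRCm38.p6). Python 3.11.15, pandas 2.3.3, numpy 2.4.6, scipy 1.17.1 and matplotlib 3.10.9 were used.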

Additional observations from a re-analysis of the deposited data

Results flagged for a closer look

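A gap test for 1 extreme liver (Dixon's, at its 95% limit) was run on the Ecm1 values of the 13 groups of 4 to 10 livers, and chance alone marks about 1 in 20 groups. It marked 2 livers. In WT NDMA livers at day 2, library D215006 held 73.6 normalized counts against 30.2 in the next liver, from 7 Ecm1 reads. In Mgmt-/- NDMA livers at week 10, library D209008 held 58.4 against 44.1 in the next, from 76 Ecm1 reads.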

How the results depend on the processing

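No paired analysis was possible because the replicate names are library numbers that are shared by no other group. The paper states that treatment was assigned by litter and that mice of separate litters were used where possible. The labels do not give the litter, so the p-values do not cover spread between litters. Of 434 repeats of a result under another setting, 393 kept direction and side of the threshold, and 15 changed sign, in each case for a value that passed neither before nor after. Among the 434 were 45 repeats without 1 liver and 42 under other settings of the Mgmt-/- treatment difference that chose Ecm1. Nothing is read from those, and 66 more were list counts. The 47 WT repeats without 1 liver kept direction and side of the threshold. Their log2 fold changes were -2.33 to -1.84 (day 2), -2.20 to -1.72 (day 5) and -0.33 to -0.13 (week 10). For the same times in Mgmt-/- livers, the 45 such repeats gave -2.07 to -1.69, -2.26 to -2.01 and -1.39 to -1.07, as a description. Equal totals moved the median of all genes to 0.20, 0.19, 0.17 and 0.24 in Mgmt-/- livers (in order of time up to week 10) from at most 0.04, where Ecm1 was at -1.49, -1.75, -2.03 and -1.03. Of all genes, 120 were called lower at WT day 5, against 18 with no filter, 362 in edgeR, 213 in DESeq2 and 320 without libraries under 300000 reads.

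The cause of each change was not tested unless fewer genes or libraries entered. Signs changed without a batch term in the saline change from day 1 to week 10 (-0.36 in WT, -0.26 in Mgmt-/- livers) and in the WT sex difference at month 10 (0.50), and with equal totals in the Mgmt-/- saline changes from day 1 to day 2 (-0.12) and to week 10 (-0.16). Without the libraries that stand apart they changed in the WT saline change from day 1 to week 10 (-0.27) and in the WT sex by treatment terms at days 1 and 2 (-0.039 and -0.29). Correlations near 0 changed sign with a pseudocount of 5 (-0.0055 for Acta2 in WT saline, -0.0048 for Col1a1 in Mgmt-/- saline and -0.0047 for Acta2 in Mgmt-/- NDMA livers), centred on the group alone (-0.0084 and -0.019 for Acta2 in WT and Mgmt-/- saline, -0.073 for Col1a1 in Mgmt-/- saline livers) and without the 2 farthest livers (-0.016 for Col1a1 in Mgmt-/- saline livers). With no filter on low values, WT day 5 was -1.88 without passing. Without the libraries that stand apart in Cdkn1a, the WT saline change from day 5 to week 10 (-0.86) passed and that from day 1 to month 10 (0.89) did not, the WT time by treatment terms of 2.14, 1.98 and 1.89 passed, the WT correlations with Col1a1 of 0.33 (saline) and -0.33 (NDMA) passed, and 7 in place of 4 TGF-beta members fell at WT day 2. Without a batch term the Mgmt-/- saline change from day 5 to week 10 (-0.82) passed. Centred on the group alone, the WT NDMA correlation with Acta2 (-0.36) passed. With a minimum mean of 20, which tests fewer genes, the TGF-beta members that rose and fell numbered 2 and 4 (WT day 1), then 3 and 6, 2 and 3, and 2 and 3 over the 3 early Mgmt-/- times, and those that rose numbered 6 (week 10) and 1 (month 10). With no covariates 0 rose at WT day 2 and 0 fell at Mgmt-/- week 10. With equal totals Mgmt-/- members that fell numbered 5, 2 and 0 (day 1, day 2, week 10), and 8, 6 and 14 rose. With no filter on low values the TGF-beta members that fell numbered 0 at WT day 5 and, in Mgmt-/- livers, 3, 3 and 0 (day 2, day 5, week 10). In batch 191212Eng alone 2 rose and 5 fell at WT day 1, and 4 and 6 at Mgmt-/- day 1. At WT day 2, 0 rose with no filter, in edgeR and in DESeq2, and 2 without libraries under 300000 reads. With the kidney-marked libraries kept, 2 rose and 3 fell at Mgmt-/- day 5, and with a pseudocount of 0.5, 0 fell at Mgmt-/- week 10. Ecm1 counts per library ran from 4 to 419 reads, which limits single WT libraries at days 2 and 5 most.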
